A study of Arabidopsis thaliana and Arabidopsis lyrata subsp. lyrata and Arabidopsis halleri subsp. gemmifera with 10 samples.

Results

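Mature leaves of 2 interspecific Arabidopsis hybrids were compared directly with each other, by signal level and without reference to a mid-parent value. The first hybrid joins A. thaliana with A. lyrata and the second joins A. thaliana with A. halleri, and they are called the A. lyrata hybrid and the A. halleri hybrid below. The comparison rests on the 4 hybrid arrays out of 10 in the series, 2 per hybrid, and on all 22746 probe sets that are not controls. The other 6 arrays are pairs for the parents: A. thaliana, accession Col, then A. halleri as the subspecies gemmifera, and A. lyrata as the subspecies lyrata. All plants grew at 22 °C with 16 h of fluorescent light a day, and leaves were taken before flowering. From each sample 500 ng of total RNA was labelled with biotin for an Affymetrix ATH1 array. The replicates are labelled as biological, and each hybrid is known only by its parents: the direction of the cross, the ploidy and the number of plants behind a sample are not stated in the labels.

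A hybrid between these species carries a chromosome set from each parent, so that A. thaliana regulators act on the genes of a relative and the reverse. The hybrids share the A. thaliana side and differ in the other parent. A. lyrata and A. halleri are perennial close relatives of each other, and A. halleri is known for tolerating and storing zinc and cadmium. Leaves of the genus make glucosinolates, sulphur compounds against herbivores, whose side chains differ between accessions and species. The ATH1 probes were designed on A. thaliana, and a transcript from a relative's allele that differs in sequence can bind them less well. A lower signal in a hybrid therefore need not mean less transcript, and in leaf tissue a change of cell makeup and a change of RNA per cell cannot be told apart.

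Every array was scaled to the same mean signal of 500, and signals below are in these arbitrary units for replicates 1 and 2. Differences are log2 values of the A. lyrata hybrid minus the A. halleri hybrid, ± SE, after adding 9.24 to each signal. They come from limma fitted to all 10 arrays, and a probe set was called at a Benjamini-Hochberg adjusted p below 0.05. Before scaling, both A. halleri hybrid arrays had been deposited at a mean of 500 and both A. lyrata hybrid arrays at 55.8 and 50.5. How the values were scaled before deposit and which hybrid they came from cannot be told apart among the hybrid arrays. A. thaliana alone has an array of each kind, and fits with this scale class as a block, which use that pair, are given beside results where they change the call. The hybridization spike-ins were 1.5-fold brighter in the A. lyrata hybrid than in the A. halleri hybrid after scaling. On the spike-in scale the median probe set was lower in the A. lyrata hybrid by a log2 difference of -0.51, against 0.0091 on the main scale, and directions below are relative to the average leaf signal.

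Replicate arrays correlated across probe sets with r of 0.934 in the A. lyrata hybrid and 0.955 in the A. halleri hybrid, and arrays of different hybrids with 0.895 to 0.916. Between the hybrids 411 probe sets were called, 1.81% of those tested. Of these, 109 (0.479%) were higher in the A. lyrata hybrid and 302 (1.33%) were higher in the A. halleri hybrid. The smallest called difference was 1.105 in size on the log2 scale, the median called difference was 2.81 in size, and 309 calls exceeded 2. The arrays of the hybrids did not overlap at any of the 411, while 25.2% of all probe sets were apart and higher in the A. lyrata hybrid and 24.0% apart and lower. A probe set with overlapping arrays could hardly be called. On the spike-in scale 64 were called higher and 923 lower, and 60 of the 109 and all 302 stayed called in the same direction. A fit blocked by scale class called 577 higher and 614 lower. Of the calls above, 46 of the 109 and 195 of the 302 stayed called, and none of the 411 changed sign. A single gene is named here for 203 of the called probe sets, 39 of them with a symbol and 164 by locus alone. With 1 of the 4 hybrid arrays left out, the calls fell to between 10 and 28 higher and between 45 and 140 lower. The lowest of these counts were both obtained without replicate 2 of the A. halleri hybrid.

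**Figure D1:**
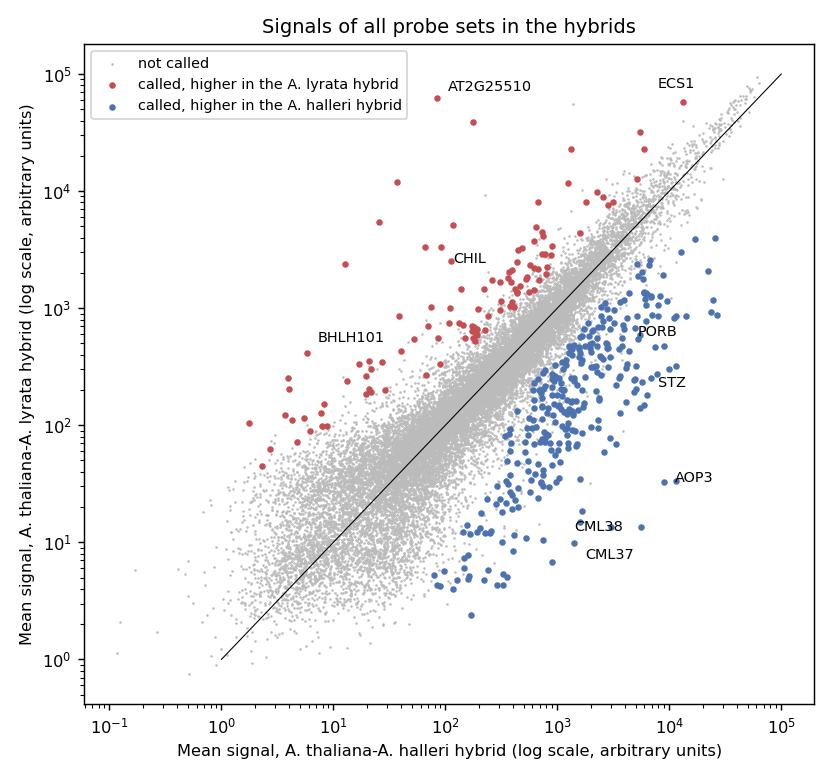
Mean signal of each of 22746 probe sets in the A. thaliana-A. halleri hybrid (x axis) and the A. thaliana-A. lyrata hybrid (y axis), each the mean of 2 arrays on a log scale in arbitrary units, with the line of equal signal. The 109 probe sets called higher in the A. lyrata hybrid are red and the 302 called higher in the A. halleri hybrid are blue, with AOP3 and AT2G25510 far from the line on opposite sides.

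The gene with a symbol that differed most was AOP3 (AT4G03050), a dioxygenase that turns methylsulfinyl into hydroxyalkyl glucosinolates. Its signal was 9714 and 8241 in the A. halleri hybrid and 51.6 and 13.4 in the A. lyrata hybrid. In the species it was 27.9 and 12.0 in A. thaliana, 147 and 64.0 in A. lyrata, and 54.6 and 127 in A. halleri. It was thus high on the A. halleri hybrid's arrays alone and at most 147 on the others. The difference between the hybrids was -7.91 ± 0.63 (limma, adjusted p = 0.000534), and it stayed called under all 23 alternative settings, at log2 differences from -8.63 to -6.97. The A. halleri hybrid was called above both of its parents at AOP3. The other measured genes of aliphatic glucosinolate synthesis were not called. BCAT4 (AT3G19710), which starts methionine chain elongation, was at 9819 and 18573 in the A. lyrata hybrid and at 12288 and 10010 in the A. halleri hybrid, with overlapping arrays (0.28 ± 0.50, adjusted p = 0.904). AOP1, of the same gene cluster as AOP3, differed by 0.49 (adjusted p = 0.806), and the glucosyltransferase UGT74C1 by 0.78 (adjusted p = 0.563). The list thus had 1 call of 4 measured members, beside 1.81% of all probe sets called. A further 18 members had no probe set named here.

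The calcium sensors CML37, CML38 and CML41 of the calmodulin-like family, in which some members respond to touch and wounding, were higher in the A. halleri hybrid. CML37 (AT5G42380) was at 1607 and 1217 in the A. halleri hybrid and at 17.9 and 1.90 in the A. lyrata hybrid, a difference of -6.34 ± 0.55 (limma, adjusted p = 0.000671). CML38 (AT1G76650) was at 2200 and 1103 against 6.12 and 31.1 (-5.98 ± 0.73, adjusted p = 0.00327). CML41 (AT3G50770), which has a role in callose deposition at plasmodesmata, was at 855 and 2018 against 92.8 and 85.8 (-3.75 ± 0.46, adjusted p = 0.00327). Against A. thaliana the A. halleri hybrid was not called at CML37, CML38 or CML41 (0.98, -1.06 and 0.18). The A. lyrata hybrid was called below A. thaliana at each (-5.36, -7.03 and -3.57). A. halleri itself had 3905 and 2901 at CML37, 134 and 154 at CML38, and 253 and 194 at CML41. The arrays of the hybrids did not overlap at any of the 3, as at all 411 calls, and 24.0% of all probe sets were apart in this direction. Among 7 CML genes named on the array these 3 were called higher in the A. halleri hybrid, where 1.33% of all probe sets were. CML23, CML30, CML42 and CML43 were not called and differed by between -1.62 and 0.37. This family was put together by symbol after the calls were seen. So were the U-box, tetraspanin, expansin, methionine sulfoxide reductase and other families by symbol below.

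The zinc finger repressor STZ (AT1G27730, also ZAT10), induced by cold, salt and drought, was at 8173 and 4486 in the A. halleri hybrid and at 105 and 259 in the A. lyrata hybrid. Its difference was -5.11 ± 0.84 (limma, adjusted p = 0.0153). A. thaliana had 7060 and 12765, A. halleri 4354 and 5496, and A. lyrata 7328 and 772, so that the A. lyrata hybrid was called below both of its parents. ORA47 (AT1G74930), an AP2/ERF activator of jasmonate synthesis genes, was at 4609 and 2011 against 110 and 330 (-3.93 ± 0.75, adjusted p = 0.0289). Its A. thaliana arrays themselves stood apart, at 1902 and 7788. PUB22 and PUB23, U-box ubiquitin ligases that dampen immune signalling, were both called higher in the A. halleri hybrid than in the A. lyrata hybrid. PUB23 (AT2G35930) was at 1376 and 584 against 59.9 and 5.13 (-4.85 ± 1.01, adjusted p = 0.0425), and PUB22 (AT3G52450) at 438 and 431 against 53.9 and 41.4 (-2.97 ± 0.53, adjusted p = 0.0221). PUB23 had 373 and 1933 in A. thaliana, 552 and 660 in A. halleri, and 146 and 17.7 in A. lyrata. There the A. halleri hybrid was called against neither parent, and the A. lyrata hybrid was called below A. thaliana (-4.77, limma adjusted p = 0.0223). PUB22 had 134 and 296 in A. thaliana, 297 and 347 in A. halleri, and 28.3 and 9.49 in A. lyrata. PUB22 and PUB23 were 2 of 9 U-box genes named on the array, and the other 7 were not called. Of all probe sets 1.33% were called in this direction.

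The chitinase gene CHI (AT2G43570) was at 738 and 1321 in the A. halleri hybrid and at 17.8 and 52.6 in the A. lyrata hybrid, a difference of -4.61 ± 0.47 (limma, adjusted p = 0.00133). It was bright in A. thaliana (2876 and 1866) and A. halleri (2385 and 1492) and dim in A. lyrata (70.8 and 60.5). RING1 (AT5G10380), a ubiquitin ligase of programmed cell death, was at 5806 and 10003 against 479 and 1235 (-3.29 ± 0.45, adjusted p = 0.0066). TET8 (AT2G23810), a tetraspanin of secreted vesicles, was at 7213 and 6880 against 782 and 979 (-3.00 ± 0.44, adjusted p = 0.00935). TET9 was called in the same direction (-2.82), but not in the class block fit (adjusted p = 0.121). These were 2 calls among 15 tetraspanins, beside the same 1.33% of all probe sets. ZCF37 (AT1G59590) differed by -4.11 ± 0.50 (adjusted p = 0.00326) and had 666 and 483 against 12.8 and 41.2. FER (AT3G51550), the receptor kinase FERONIA of cell wall sensing, differed by -1.49 ± 0.32 (adjusted p = 0.0476), with 1170 and 1423 against 394 and 524. At each of these genes, as at all 411 calls, the lower of the A. halleri hybrid's arrays and the higher of the A. lyrata hybrid's did not overlap. This adds nothing to the call, and 24.0% of all probe sets were apart in this direction.

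A sum of senescence markers, which move with leaf age, and ratios of control genes were set beside these genes. None of the gene lists was made for handling, touch or wounding. The summed signal of 3 measured senescence markers was 155 and 301 in the A. lyrata hybrid and 1094 and 400 in the A. halleri hybrid, and none of the 3 was called. WRKY53, the transcription factor among them, had 95.0 and 123 against 713 and 272 (-1.94, limma adjusted p = 0.101). The sum was 1214 and 1914 in A. thaliana, 224 and 313 in A. lyrata, and 336 and 503 in A. halleri. The ratio of 3' to 5' signal of control genes is often taken as a sign of RNA integrity. For GAPDH it was 1.86 and 1.70 in the A. lyrata hybrid and 1.65 and 1.43 in the A. halleri hybrid. That of actin was 10.2 and 10.1 against 12.0 and 14.1, and that of ubiquitin was 2.08 and 1.99 against 1.29 and 1.43. The ratios also differed between the species. GAPDH had 2.53 and 2.46 in A. thaliana and 0.315 and 0.272 in A. halleri. Actin had 29.1 and 31.9 in A. thaliana and 2.09 and 3.47 in A. lyrata. Ubiquitin lay between 1.02 and 1.97 on the species arrays. Whether the ratios reflect RNA integrity across species and hybrids was not tested. The part of the marker sum and the ratios in the differences was not tested either, nor was that of handling. Over the 302 calls that were higher in the A. halleri hybrid, the A. thaliana array of the unscaled class was brighter than that of the scaled class by a median log2 of 0.47, which is opposite to the direction in the hybrids. Over the 109 other calls that median was -0.09, and over all probe sets 0.03. These medians rest on a single pair of arrays, in which deposited scale and a difference between the samples cannot be told apart.

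**Figure D2:**
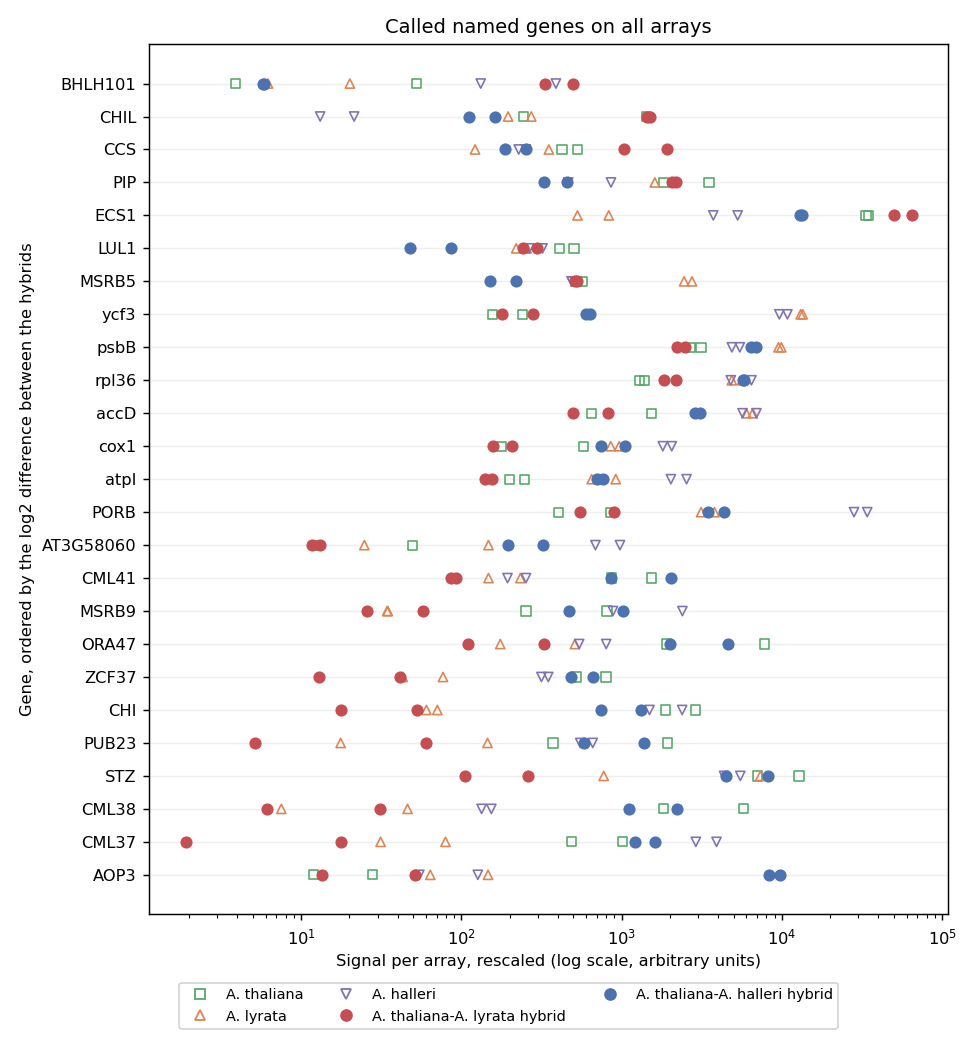
Signal on each of the 10 arrays (x axis, log scale, arbitrary units) for the 25 called named genes (y axis), ordered by the difference between the hybrids; filled circles are the hybrids and open symbols the species, 2 arrays each. BHLH101 to MSRB5 are higher in the A. lyrata hybrid, and AOP3 is bright on the 2 A. halleri hybrid arrays alone.

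The genes called higher in the A. halleri hybrid also included genes of cell walls and of redox control. The pectin methylesterase gene ATPMEPCRB (AT4G02330) was at 1088 and 1112 in the A. halleri hybrid and at 97.8 and 101 in the A. lyrata hybrid (-3.35 ± 0.37, limma adjusted p = 0.00209). It was called above both parents in the A. halleri hybrid, where A. thaliana had 70.4 and 49.3 and A. halleri 274 and 326. The expansin-like gene EXLA1 (AT3G45970) differed by -3.50 ± 0.75 (adjusted p = 0.0479). It was the single call among 18 expansin and expansin-like genes, beside 1.33% of all probe sets called in this direction. SAPX (AT4G08390), the ascorbate peroxidase of the chloroplast stroma, was at 2242 and 2202 in the A. halleri hybrid and at 363 and 281 in the A. lyrata hybrid (-2.76 ± 0.29, adjusted p = 0.00155). Both A. lyrata hybrid arrays lay below all other arrays of the series, and this hybrid was called below both of its parents. Methionine sulfoxide reductases, which repair oxidised methionine, went both ways among 4 measured. They had 1 call in each direction, beside 1.33% of all probe sets lower and 0.479% higher in the A. lyrata hybrid. MSRB9 (AT4G21850) was at 467 and 1025 in the A. halleri hybrid against 25.9 and 57.3 (-3.86 ± 0.66, adjusted p = 0.0183), and MSRB5 (AT4G04830) at 218 and 150 against 526 and 514 (1.48 ± 0.27, adjusted p = 0.0244). In the class block fit neither was called, MSRB9 at -2.22 (adjusted p = 0.246) and MSRB5 at 1.61 (adjusted p = 0.0635), and on the spike-in scale MSRB5 was at 0.92 (adjusted p = 0.126). MSRB3 and MSRB6 were not called.

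In the A. lyrata hybrid 7 genes with a symbol were called higher, fewer than the 32 in the other direction. BHLH101 (AT5G04150), a transcription factor of the iron deficiency response, was at 334 and 498 in the A. lyrata hybrid and at 5.79 and 5.89 in the A. halleri hybrid, a difference of 4.79 ± 0.81 (limma, adjusted p = 0.0175). It was called above both parents, since A. thaliana had 52.2 and 3.90 and A. lyrata 6.22 and 20.2, while A. halleri had 389 and 132. The other measured gene of the iron response, PYE, was not called (0.57, adjusted p = 0.792). CCS (AT1G12520), the copper chaperone of superoxide dismutase, was at 1038 and 1906 against 186 and 254 (2.64 ± 0.48, adjusted p = 0.0237), and it was not called in the class block fit (2.95, adjusted p = 0.0728). CHIL (AT5G05270), a chalcone isomerase-like enhancer of flavonoid synthesis, was at 1434 and 1500 against 112 and 162 (3.36 ± 0.67, adjusted p = 0.0356). It was not called on the spike-in scale (2.81, adjusted p = 0.0571). In the class block fit CHIL was at 0.85 (adjusted p = 0.550), and its A. thaliana arrays differed, with 244 and 1427. None of 5 listed anthocyanin and flavonoid genes was called, with differences from 0.14 to 1.93, where 1.81% of all probe sets were called.

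PIP (AT2G14260), a proline iminopeptidase, was at 2184 and 2069 in the A. lyrata hybrid and at 326 and 456 in the A. halleri hybrid (2.43 ± 0.38, limma adjusted p = 0.0123), and by the class block fit it was at 1.5 and not called (adjusted p = 0.146). ECS1 (AT1G31580), a cell wall protein, was among the brightest genes of the comparison, with 50035 and 64808 against 13402 and 12914 (2.11 ± 0.31, adjusted p = 0.00971). LUL1 (AT5G03200), a RING ubiquitin ligase, had 241 and 295 against 47.7 and 86.6 (1.90 ± 0.39, adjusted p = 0.0379), and the A. halleri hybrid was called below both of its parents there. LUL1 was called neither in the class block fit (1.60, adjusted p = 0.208) nor on the spike-in scale (1.39, adjusted p = 0.104). At MSRB5 too the A. halleri hybrid was below both parents. At the other 5 of the 7 genes it was called neither above nor below both.

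Among 25 called named genes, AOP3, CML37 and CHI stayed called under each of the 23 alternative settings. With 1 hybrid array left out, between 5 and 7 of the 25 stayed called, the fewest without replicate 2 of the A. halleri hybrid, and none changed sign. The adjusted p then reached 0.0109 for AOP3, 0.0109 for CML37 and 0.0262 for CHI. It ranged from 0.0622 to 0.182 for STZ and from 0.115 to 0.133 for BHLH101. At dim signals the size of a difference depends on the added constant. With the constant at the 1st or 25th percentile of signals, the difference at CML37 ranged from -7.37 to -4.83 and that at AOP3 from -8.30 to -6.97.

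Most chloroplast-encoded transcripts had a lower signal in the A. lyrata hybrid than in the A. halleri hybrid, though few passed the test. Of 69 chloroplast-encoded genes measured, 7 were called lower in the A. lyrata hybrid and none higher, against a background of 1.33% lower and 0.479% higher, and 56 had a difference below 0. Their median difference was -0.69, beside 0.0091 over all probe sets. The arrays of the hybrids were apart and lower in the A. lyrata hybrid at 47 of the 69 and higher at 10, where 24.0% and 25.2% of all probe sets were apart in these directions. On the spike-in scale 21 were called lower and none higher and the median was -1.27. The class block fit had 16 called lower and 1 higher, with a median of -0.61. Without replicate 1 of the A. lyrata hybrid, or without replicate 2 of the A. halleri hybrid, none was called lower. The summed signal of the 69 was 714740 and 733820 in the A. lyrata hybrid and 874770 and 872200 in the A. halleri hybrid. All come from 1 genome copied in each plastid, so that the genes are not independent of each other.

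The called genes belong to several complexes. In atpI, a subunit of the ATP synthase, the signal was 140 and 154 in the A. lyrata hybrid and 701 and 767 in the A. halleri hybrid (-2.25 ± 0.29, limma adjusted p = 0.00447). In psbB, the CP47 antenna protein of photosystem II, it was 2204 and 2472 against 6433 and 6863 (-1.51 ± 0.23, adjusted p = 0.011). In accD, the plastid subunit of acetyl-CoA carboxylase for fatty acid synthesis, it was 495 and 827 against 3100 and 2866 (-2.20 ± 0.39, adjusted p = 0.0202). In rpl36, a ribosomal protein, it was 2188 and 1849 against 5780 and 5733 (-1.51 ± 0.24, adjusted p = 0.0135). In ycf3, an assembly factor of photosystem I, it was 282 and 180 against 639 and 603 (-1.42 ± 0.29, adjusted p = 0.0373). A. lyrata and A. halleri themselves had between 9630 and 13485 at ycf3, and A. thaliana had 156 and 240. The A. lyrata hybrid was not called against A. thaliana there (0.21, adjusted p = 0.722). The class block fit did not call rpl36 (-1.41, adjusted p = 0.0584). The 2 other calls were ndhK of the NDH complex (-1.67) and rbcL, the large subunit of Rubisco (-1.105). At rbcL the A. halleri hybrid was above both of its parents. In the class block fit rbcL was not called (adjusted p = 0.121).

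By complex, medians of the difference ran from -1.31 over 7 photosystem I and assembly genes to -0.45 over 10 NDH genes. They were -0.91 over 15 photosystem II genes, -0.84 over 4 RNA polymerase subunits, -0.74 over 6 ATP synthase genes, -0.61 over 6 cytochrome b6f genes and -0.47 over 15 ribosomal protein genes. No group had a median above 0 and all 4 RNA polymerase subunits were below 0. The exceptions were single genes, among them ccsA at 1.22 and psbA, the D1 protein, at 0.47, neither called. None of 7 nuclear photosynthesis genes was called, and their median difference was 0.50, or -0.08 on the spike-in scale. Beside 1.81% of all probe sets, 1 of 18 probe sets for 11 mitochondrial genes was called, at cox1, a subunit of cytochrome c oxidase. It had 156 and 207 in the A. lyrata hybrid and 1044 and 744 in the A. halleri hybrid (-2.23 ± 0.46, limma adjusted p = 0.0406). In the class block fit cox1 was at -0.59 and not called (adjusted p = 0.563).

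**Figure D3:**
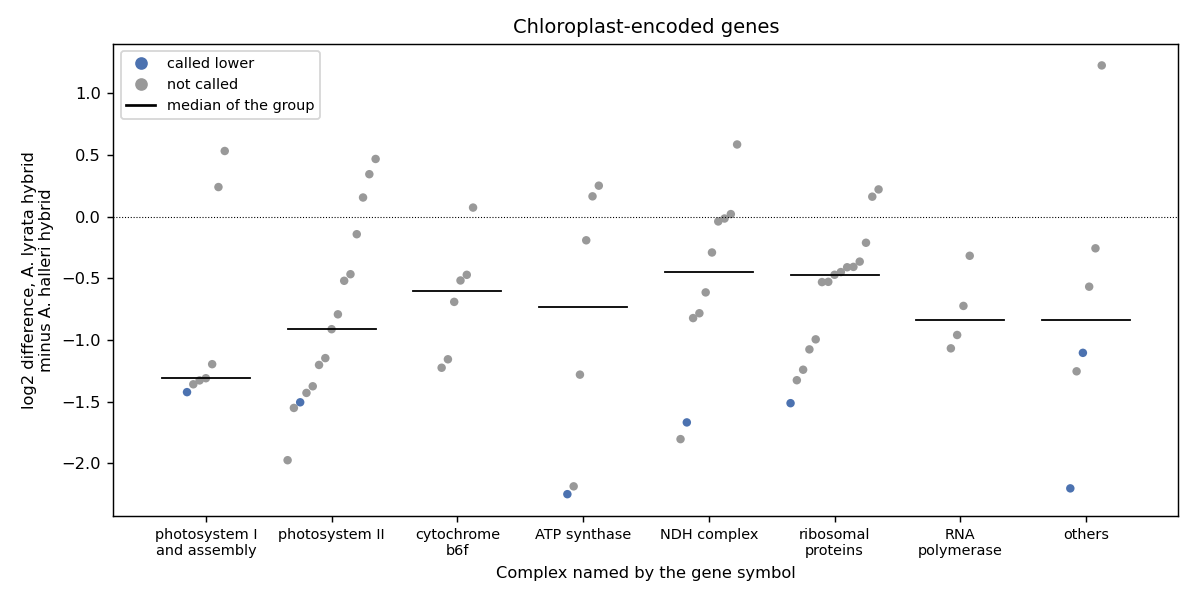
Difference between the hybrids (y axis, log2 of the A. lyrata hybrid minus the A. halleri hybrid, n = 2 arrays each) for each of 69 chloroplast-encoded genes, grouped by the complex their symbol names (x axis); blue points are the 7 called lower, grey points were not called, and bars are group medians. Most points lie below 0, with medians from -1.31 for photosystem I to -0.45 for the NDH complex.

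PORB (AT4G27440), a protochlorophyllide reductase that makes chlorophyll in the light, was called higher in the A. halleri hybrid. It was at 4347 and 3436 there and at 891 and 548 in the A. lyrata hybrid (-2.45 ± 0.37, limma adjusted p = 0.0104). A. halleri had 34029 and 28144, A. lyrata 3793 and 3129, and A. thaliana 850 and 404. The order of the hybrids was thus that of their other parents. By the class block fit the difference was -1.40 and not called (adjusted p = 0.118). The other measured genes of chlorophyll synthesis, CHLM, GSA1 and HEMB1, were not called and differed by 0.45, 0.08 and 0.41.

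The remaining lists had few measured members and few calls, where 1.81% of all probe sets were called. Among 5 genes of zinc and other metal homeostasis, a gene listed by its locus, AT3G58060, was called, with 322 and 194 in the A. halleri hybrid and 11.8 and 13.1 in the A. lyrata hybrid (-3.58, limma adjusted p = 0.0464). The zinc transporter gene ZIP6 (AT2G30080) was at 249 and 434 in the A. lyrata hybrid and 680 and 516 in the A. halleri hybrid (-0.83 ± 0.37, adjusted p = 0.385). Among 5 genes of cold and drought response, STZ was the single call, and COR15A (AT2G42540), a chloroplast protein of freezing tolerance, differed by -0.26 ± 0.73 (adjusted p = 0.952). The defensin PDF1.2b (AT2G26020), whose probe set can bind related defensins, was at 4793 and 8079 against 15708 and 12699 (-1.18 ± 0.55, adjusted p = 0.420). The clock gene GI (AT1G22770) was at 557 and 447 against 462 and 439 (0.15 ± 0.66, adjusted p = 0.974). By the class block fit GI was called lower in the A. lyrata hybrid at -2.63 (adjusted p = 0.0068), as the A. thaliana arrays had 162 and 1162.

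No member was called in the lists of auxin response (3 probe sets), cell division (1), guard cell (3), root (2), trichome (1) and vascular markers (1), heat shock (4), jasmonate and ethylene defence (4), salicylic acid and defence (1), starch metabolism (4), indole glucosinolate and camalexin synthesis (1), DNA methylation (3, all for 1 gene) and conserved reference genes (7). Of the root markers, the summed signal was 139 and 111 in the A. lyrata hybrid and 103 and 93.9 in the A. halleri hybrid. The vascular marker SWEET11 was at 7680 and 6598 against 3615 and 5878 and the trichome marker TRY at 1142 and 866 against 1289 and 853. Guard cell markers summed to 504 and 455 against 350 and 446. Most of that sum was FAMA, at 470 and 440 against 324 and 334, a difference of 0.46. MUTE and SPCH were dim and went the other way, at -0.79 and -1.02. None of the 47 UGT glycosyltransferases had a call, and the same held for 20 BGLU, 11 GSTU, 14 SWEET and 7 IAA genes. Of all probe sets 1.81% were called, so lists and families of these sizes would often hold no call. The remaining 4 lists, of flower markers, flowering and vernalization, glucosinolate breakdown and oxidative stress enzymes, had no member with a probe set named here.

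Among the largest differences were several at loci without a symbol. AT2G25510 was at 58969 and 66025 in the A. lyrata hybrid and at 95.5 and 73.9 in the A. halleri hybrid, a difference of 9.39 ± 0.27 (limma, adjusted p = 1.85e-07). A. thaliana had 45321 and 39856, while A. lyrata and A. halleri had between 77.1 and 252. The A. lyrata hybrid was thus bright like A. thaliana, and the A. halleri hybrid dim like its other parent. AT1G66100, AT3G22240 and AT2G25450 were likewise bright in A. thaliana and the A. lyrata hybrid and dim in the other groups, with differences of 8.29, 7.82 and 7.40. The reverse held at AT5G52760, with 2136 and 3112 in the A. halleri hybrid, 25 and 93.6 in the A. lyrata hybrid, 3811 and 5099 in A. thaliana, and at most 22.6 in either relative (-5.45, adjusted p = 0.00175). AT3G48640 (-5.39) and AT3G01830 (-5.31) were also higher in the A. halleri hybrid. At AT3G48640 that hybrid was called above both of its parents, with 3024 and 3593 beside 564 and 739 in A. thaliana. At AT3G01830 the A. lyrata hybrid was called below both of its parents. These 7 loci were chosen for their large differences, after their values were seen.

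Probe sets of that kind were counted across the array. Those called brighter in A. thaliana than in both A. lyrata and A. halleri numbered 1563, by differences between the species arrays with the spread estimated over all arrays. Of these, 124 (7.93%) were called between the hybrids, where 1.81% of all probe sets were. They were 30.2% of all calls, 38 of them higher in the A. lyrata hybrid and 86 higher in the A. halleri hybrid. Of 2301 probe sets dimmer in A. thaliana than in both relatives, 37 (1.61%) were called, and of the remaining 18882, 250 (1.32%). The comparisons share each probe set's estimate of spread, so that a probe set with a small one is called more easily in both. With the species and the hybrids fitted on separate arrays, 127 of 1052 (12.1%) brighter in A. thaliana were called, 35 of 1419 (2.47%) dimmer in A. thaliana, and 542 (2.38%) of all.

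Most of the 124 were called below A. thaliana in a single hybrid. In 32 of the 38 the A. halleri hybrid was called below A. thaliana and the A. lyrata hybrid was not called against it. In 80 of the 86 the roles were exchanged. These counts share hybrid arrays with the calls and are a description, and not being called does not show a level equal to that of A. thaliana: the A. lyrata hybrid minus A. thaliana was 2.39 at AT1G66100 (limma, adjusted p = 0.0965). ECS1 was among the first, with 33464 and 34720 in A. thaliana, 830 and 530 in A. lyrata, and 5292 and 3729 in A. halleri. CML38, CML41, RING1, ORA47 and VPS2.1 were among the others, the last a subunit of the ESCRT machinery that sorts membrane proteins. Over all 1563 the hybrids stood equally far below A. thaliana, by a median log2 of -0.71 in each, and their median difference was 0.0082.

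**Figure D4:**
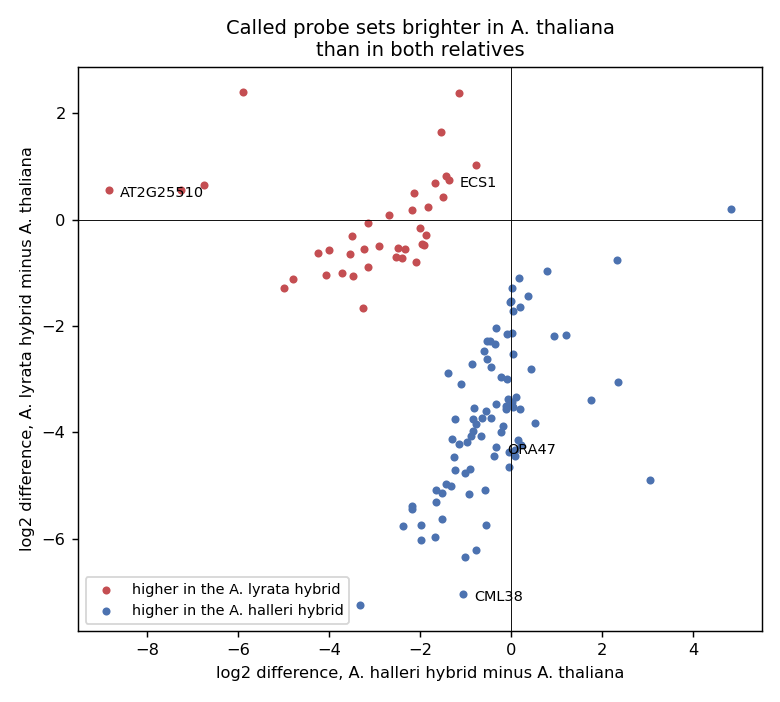
Log2 difference from A. thaliana of the A. halleri hybrid (x axis) and of the A. lyrata hybrid (y axis), 2 arrays a group, for the 124 called probe sets that were brighter in A. thaliana than in both relatives. The 38 red points, higher in the A. lyrata hybrid, lie to the left, and most of the 86 blue points, higher in the A. halleri hybrid, lie below 0 and near the vertical line.

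The parents that the hybrids do not share differed at far more probe sets than the hybrids. A. lyrata and A. halleri differed at 2345 probe sets (10.3%), 1136 higher in A. lyrata (4.99%) and 1209 lower (5.32%). This comparison shares no array with that of the hybrids, but it has the same split of scale classes. Of the 109 calls higher in the A. lyrata hybrid, 31 were also called higher in A. lyrata, which is 28.4% of these calls and 2.73% of the calls between the species. A further 73 were not called between the species, and 5 were called the opposite way. Of the 302 calls higher in the A. halleri hybrid, 148 were also higher in A. halleri, which is 49.0% of these calls and 12.2% of the species' calls. A further 152 were not called and 2 were called the opposite way. With the species and the hybrids fitted on separate arrays the shares of hybrid calls were 18.5% and 31.6%, where 4.88% of probe sets were called between the species in either direction.

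The hybrids differed less than the relatives at the probe sets called between the relatives, a choice that favours large differences in the relatives. Probe sets called higher in A. lyrata had a median species difference of 1.90 and a median hybrid difference of 0.44, beside 0.91 between the 2 mid-parent levels. Those called lower had medians of -2.09, -0.56 and -0.85. In 1871 of the 2345, or 79.8%, the hybrids had the same sign. CHI went the same way in both comparisons, with -4.61 between the hybrids and -4.67 between the relatives, as did CML37 with -6.34 and -5.81, MSRB9 with -3.86 and -5.06 and PORB with -2.45 and -3.16. SCPL49, a serine carboxypeptidase-like gene, had -1.78 and -2.97 and was not called between the hybrids in the class block fit (adjusted p = 0.0837).

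Whether the difference between the hybrids departed from that between the relatives was tested in the same fit. The departure was called at 186 probe sets (0.818%), of which 47 were also called between the hybrids, 11.4% of the 411. At 33 of these 47 the relatives' difference had the opposite sign. The departure contains the hybrids' difference, so calls between the hybrids are favoured among departures, and opposite signs among the 47. Both counts are a description. AOP3 departed by -8.11 (adjusted p = 0.00506), as the relatives differed by 0.20 there. BHLH101 departed by 8.26 (adjusted p = 0.0139), since it was lower in A. lyrata than in A. halleri (-3.48, limma adjusted p = 0.0236) and higher in the A. lyrata hybrid. ECS1 did the same, by 4.84 (adjusted p = 0.00134), with a relatives' difference of -2.73. At CHI, by contrast, the departure was 0.06 ± 0.66 and not called (adjusted p = 0.982).

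**Figure D5:**
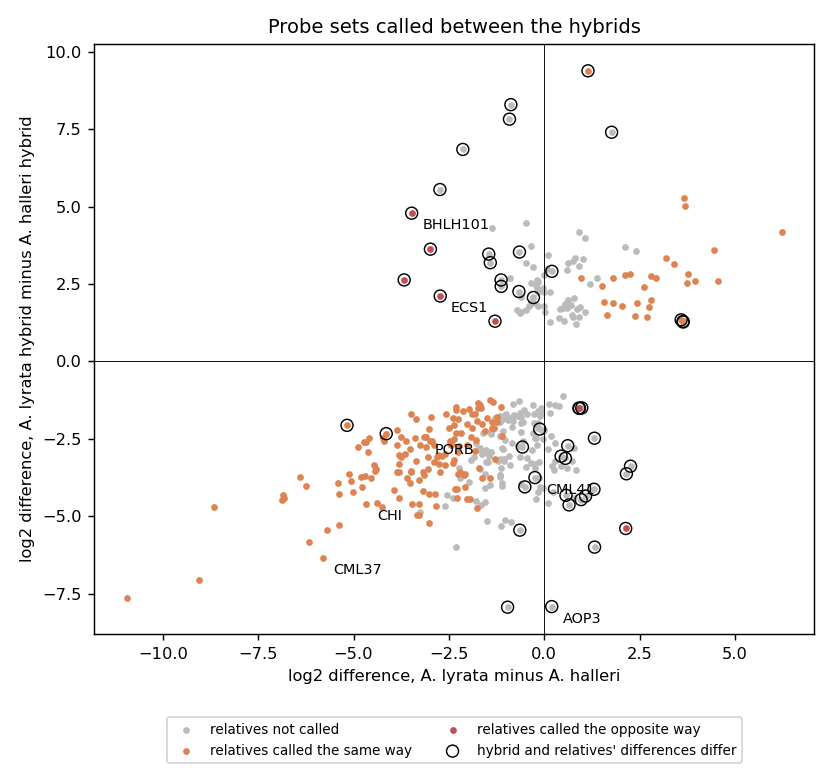
Log2 difference between A. lyrata and A. halleri (x axis) and between their hybrids with A. thaliana (y axis), 2 arrays a group, for the 411 probe sets called between the hybrids. Of the 302 points below 0 on the y axis, 148 were called the same way in the relatives, and the 47 circled points, AOP3 and BHLH101 among them, have hybrid and relatives' differences that were called different.

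The calls were also placed against the parents. Of the 302 calls lower in the A. lyrata hybrid, 40 had this hybrid below both of its parents and 9 had the A. halleri hybrid above both of its own. Of the 109 calls higher in the A. lyrata hybrid, 17 had it above both parents and 7 had the A. halleri hybrid below both. Over all probe sets, the A. lyrata hybrid was below both parents at 90 (0.396%) and above both at 97 (0.426%). The A. halleri hybrid was above both at 35 (0.154%) and below both at 27 (0.119%). These placements share arrays with the calls, so that a call between the hybrids favours them. STZ and SAPX were among the 40, AOP3, ATPMEPCRB and rbcL among the 9, BHLH101 among the 17, and LUL1 and MSRB5 among the 7. In 251 and 84 of the calls neither hybrid was outside the range of its parents by these tests.

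Calls were spread over the nuclear chromosomes. Between 1.27% of probe sets (chromosome 2) and 1.94% (chromosome 4) were called per chromosome, with medians of the difference from 0.01 to 0.05. Of 5814 pairs of neighbouring genes that were both measured, 183 had a call and in 3 both genes were called, each pair in 1 direction. The pairs were AT4G27652 with AT4G27654, AT5G45500 with AT5G45510 and AT5G52750 with AT5G52760.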

How the data were processed

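Leaf RNA of 3 species and 2 hybrids was measured on ATH1 arrays, 2 per group, grouped by the sample titles. The deposited intensity is a linear signal for each probe set, which the authors made with GCOS and MAS5, per the submitters' processing notes; no version is given in the sources used here. The deposited arrays were not on 1 scale, and each was rescaled to a mean of 500 after trimming 2% at each end. Arrays have no read depth, and precision is limited by their number. Detection calls were not used.

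Of 22810 probe sets, 64 controls were left out and the remaining 22746 were tested without a filter on low signals. The tests were lmFit and a trended eBayes of limma 3.58.1, under R 4.3.3, on log2 of the signal plus 9.24, which is the 10th percentile of all signals. The 10 arrays shared 1 estimate of spread per probe set (5 residual and 5.13 prior degrees of freedom). P-values were adjusted by Benjamini-Hochberg within a comparison. A hybrid was above or below both parents where both differences were called. The departure of the hybrids' difference from the relatives' difference was a contrast in the same fit, added after the data were seen, as were the probe sets brighter in A. thaliana and the families formed by symbol. The procedure was tested on simulated data.

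Probe sets were named from a partial platform table, in which 13513 probe sets had 1 gene and 503 several. A RefSeq gene table (TAIR10.1), read for names and gene order alone, held 13436 of the first, and 1579 had a symbol. Gene lists held 476 genes by locus, of which 69 had a probe set, and organelle genes were added from the gene table. The comparison, the lists and the rule for named genes were chosen with earlier results of these data known. The rule took up to 10 called genes per direction with the largest difference among those with a symbol and a mean signal of at least 104 in the brighter hybrid, at most 3 called members per list and direction (5 for organelles), and GI, PORB, ZIP6, BCAT4, PDF1.2b and COR15A in any case. Other genes named in the report were chosen after their values were seen. Alternatives changed the scaling, the constant, a filter, the arrays fitted, blocks, the prior and the threshold.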

Additional observations from a re-analysis of the deposited data

Results flagged for a closer look

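At 5 named genes the difference between the hybrids departed from the difference between A. lyrata and A. halleri by the test of that departure in limma. The departure was 8.26 ± 1.15 on the log2 scale at BHLH101 (adjusted p = 0.0139), 4.84 ± 0.44 at ECS1 (adjusted p = 0.00134), -2.42 ± 0.32 at psbB (adjusted p = 0.0115), -3.51 ± 0.65 at CML41 (adjusted p = 0.044) and -8.11 ± 0.90 at AOP3 (adjusted p = 0.00506). At BHLH101, ECS1 and psbB the hybrids and the relatives differed in opposite directions, and the relatives' difference was itself called at each, at -3.48, -2.73 and 0.91. At CML41 and AOP3 the relatives did not pass the test, at -0.24 and 0.20.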

How the results depend on the processing

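Counts moved with the setting more than directions did. In the report 109 probe sets were higher and 302 lower in the A. lyrata hybrid, 7 chloroplast-encoded genes were lower, 179 calls went the same way in the relatives, 40 calls had the A. lyrata hybrid below both parents, and 124 calls were among the probe sets brighter in A. thaliana. In that order these counts were 64, 923, 21, 488, 25 and 404 on the spike-in scale, and 56, 132, 1, 83, 11 and 58 with no trend in the prior. At a threshold of 0.01 they were 20, 95, 1, 51, 4 and 33. A block for the scale class made the first 5 of them 577, 614, 16, 650 and 145. Quantile normalization left 25 below both parents, and the hybrid arrays alone gave 168 higher. With each of the 10 arrays left out in turn, the counts ranged from 10 to 257, from 45 to 522, from 0 to 23, from 27 to 376, from 4 to 95 and from 21 to 201. The highest came without replicate 1 of A. thaliana and the lowest without a hybrid array. Without an A. halleri array 64 were higher. A lone array left in a group is assumed to vary like the other groups. Samples with the same replicate number did not deviate together (r = -0.05 between the hybrids), and the replicate number as a block gave 98 higher, 268 lower and 4 chloroplast-encoded genes lower. All other settings changed these counts by less than 1.5 times.

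No called named gene changed sign. Of 5 named genes that were not called, 4 did. BCAT4 was at -0.30 on the spike-in scale and from -0.18 to 0.74 with an A. lyrata hybrid array left out. GI was at -0.43 on the spike-in scale, -2.63 with the class block and from -0.010 to 0.30 with an A. lyrata hybrid array left out. COR15A was at 2.09 with that block and from -0.53 to 0.021 with such an array left out, and PDF1.2b at 0.16 with that block. The causes were not tested.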

Other observations

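Some called genes belong to none of the gene lists or families by symbol described above. SCPL49 and VPS2.1, already named, are given here with their signals. JAL34 (AT3G16460), a jacalin-related lectin, was at 875 and 971 in the A. halleri hybrid and at 149 and 93.1 in the A. lyrata hybrid (-2.87 ± 0.45, limma adjusted p = 0.0125), but not called with the scale class as a block (adjusted p = 0.101). Its signal in the species lay between 139 and 413, so that the A. halleri hybrid's arrays were above every other array of the series. The call above both parents was not reached there. SCPL49 (AT3G10410) had 3291 and 3154 in the A. halleri hybrid against 733 and 1181 (-1.78 ± 0.28, adjusted p = 0.0123), and was not called with that block (adjusted p = 0.0837). VPS2.1 (AT2G06530) had 2495 and 2452 against 783 and 946 (-1.51 ± 0.29, adjusted p = 0.0293), and its difference between the hybrids departed from that between the relatives by -2.44 (adjusted p = 0.0301).

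At AT4G36700 the signal was 225 and 183 in the A. lyrata hybrid, which was called above both of its parents, and 4.1 and 4.0 in the A. halleri hybrid. Its 6 arrays of the species lay between 1.53 and 56.5. At AT4G23680 the A. lyrata hybrid had 929 and 781 and A. lyrata 1685 and 2667, while the A. halleri hybrid had 32.9 and 44. With the class block AT4G36700 (adjusted p = 0.0656) and AT4G23680 (adjusted p = 0.203) were not called. These genes were chosen after their values were seen.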
